A study of Mus musculus with 15 samples.

Results

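The response of each gene to 0.5 h of LPS was compared between Nelfb KO and WT bone marrow-derived macrophages (BMDM). For every gene the log2 ratio of FPKM + 1 at 0.5 h to rest was taken in Nelfb KO, the same ratio was taken in WT, and the WT ratio was subtracted from the KO ratio. A positive difference of responses therefore means a larger response in Nelfb KO. It was taken over 11258 of 23996 genes (46.9%), those that averaged 0.5 FPKM or more across the study's 5 groups. FPKM is a fragment count scaled by the length of the transcript and by the number of mapped fragments in the library. Nelfb KO BMDM came from Nelfb fl/fl, Lyz2-Cre mice and WT BMDM from Nelfb +/+, Lyz2-Cre mice, all on C57BL/6, so that both genotypes carried the Cre that is made from the myeloid gene Lyz2. Marrow was grown for 5 days in medium conditioned by L929 cells, and LPS was given at 10 ng/ml. The groups were Nelfb KO after 0.5 h of LPS, resting Nelfb KO, WT after 0.5 h of LPS and resting WT, with 3 libraries of polyadenylated RNA in each (12 in all), and another group of 3, WT after 1 h of LPS, served only for the filter and as an outside value. The authors' deposited table holds 1 average per gene and group. No SD, no test and no p-value could be computed for any difference of responses, the depth behind a value is unknown, and whether a difference exceeds the spread between libraries was not tested.

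NELF is a complex of 4 subunits, NELF-A, NELF-B, NELF-C/D and NELF-E, that holds RNA polymerase II in a paused state shortly after the start site of a gene. In the canonical model, release needs the kinase P-TEFb, which phosphorylates NELF and its partner DSIF. LPS is sensed by TLR4 and within minutes sets off NF-kB and MAP kinase signals, and the first genes to answer are short immediate early genes and early cytokines, many of which carry paused polymerase before the signal.

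The sum of FPKM over all genes was 534601 in Nelfb KO at 0.5 h and 527317 in resting Nelfb KO, against 511973 in WT at 0.5 h and 615071 in resting WT. The top 100 genes took the largest share of it, 38.1%, in resting WT and 33.4% to 35.5% in the other 3 groups. Nelfb itself had 5.55 FPKM in Nelfb KO at 0.5 h and 5.65 FPKM in resting Nelfb KO, against 19.7 FPKM at 0.5 h and 21.9 FPKM at rest in WT. Of 24 macrophage identity markers 22 passed the filter, and the list summed to 12692 FPKM in Nelfb KO at 0.5 h and 12610 FPKM in resting Nelfb KO, against 11664 FPKM at 0.5 h and 12991 FPKM at rest in WT. The 15 markers of T, NK and B cells summed to 24.3 and 26.1 FPKM in Nelfb KO and to 28.2 and 33.4 FPKM in WT, where, here and throughout, the first value of a pair is that at 0.5 h and the second that at rest. Neutrophil and granulocyte progenitor markers summed to 195 and 186 FPKM in Nelfb KO and to 124 and 148 FPKM in WT, with 132.7 and 122 FPKM in Nelfb KO and 72.5 and 98.8 FPKM in WT from S100a8 alone. Markers of erythroid, megakaryocyte and mast cells, of fibroblasts and endothelium, and of dendritic cells each summed to at most 35.7 FPKM in these groups. Of these 5 lists of other cells only 2, 5, 2, 6 and 3 genes, in the order named, passed the filter. None of these kept genes passed 1.5-fold in its difference of responses. With so few genes this is near the 5.89% of all kept genes with a larger response. The part of such cells in the results was not tested. Fewer cells of a type and less RNA per cell cannot be told apart in such bulk samples.

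The difference of responses was centred near 0, with a median of 0.02, and 93.7% of the kept genes differed by less than 1.5-fold between the genotypes. Past 1.5-fold, the response was larger in Nelfb KO for 663 genes, which is 5.89% of the kept genes, and smaller for 51 genes (0.453%). Past 2-fold there were 106 genes with a larger response (0.942%) and 41 with a smaller response (0.364%). The largest values at each end belonged to small RNA genes. There were 123 of these among the kept genes (1.09%), 79 miRNA and 39 snoRNA genes among them, and they carried 81.9% of the sum of squares of the difference. Among the other 11135 genes, 611 had a larger response and 9 a smaller one past 1.5-fold, and 58 and 3 past 2-fold. At the edge of the filter, Spa17 and Atl1 were just inside with means of 0.5005 and 0.5012 FPKM and differences of 0.07 and 0.06, and Nrg4 and Lrrc1 were just outside with means of 0.4989 and 0.4992 FPKM and differences of -0.13 and 0.02.

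**Figure D1:**
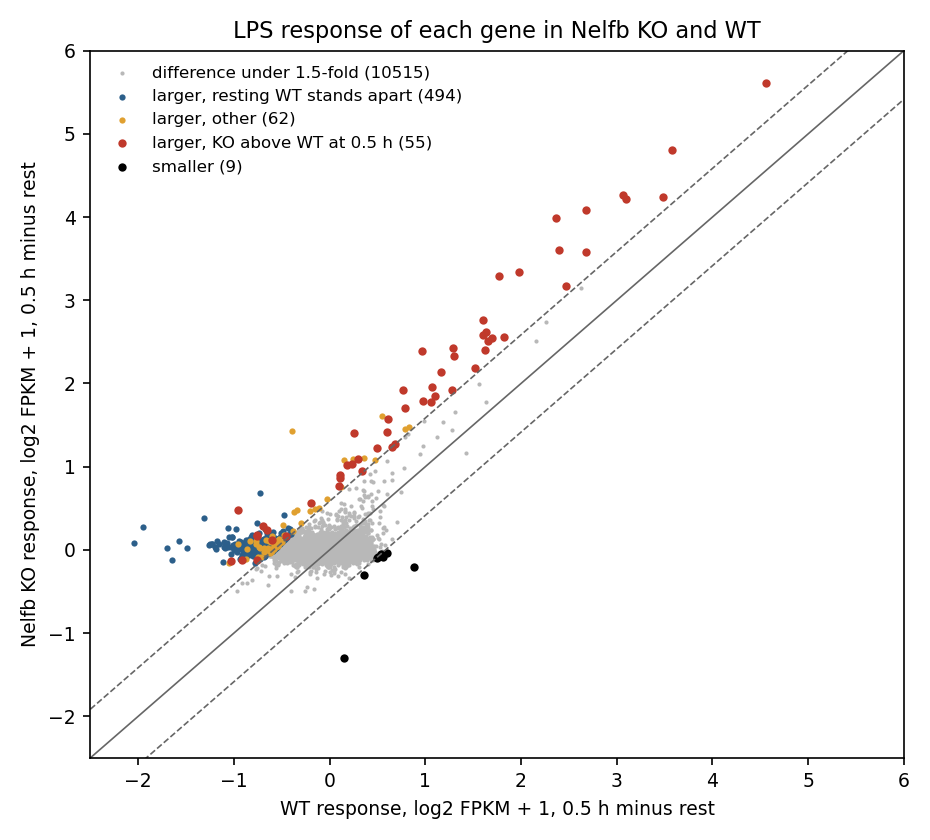
Each point is 1 of the genes other than small RNA genes, with the WT response on the x axis and the Nelfb KO response on the y axis, both as the log2 ratio of FPKM + 1 at 0.5 h to rest. The solid line marks equal responses and the dashed lines 1.5-fold differences. The 494 genes with resting WT apart lie at a KO response near 0 and a negative WT response, as their selection favours. The 55 genes with KO above WT at 0.5 h run mostly up along the diagonal. Rn45s, listed at 0 in resting WT, lies outside the axes.

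The difference can be split into pairs of groups in 2 exact ways, as the genotype difference at 0.5 h minus that at rest, or as the KO response minus the WT response. Over all kept genes 50.2% of the variance of the difference lay in the genotype difference at 0.5 h and 49.8% in that at rest. This even split came from the small RNA genes. Without them, a choice made after seeing the data, 17.8% lay in the genotype difference at 0.5 h and 82.2% in that at rest, and likewise 18.9% in the KO response and 81.1% in the WT response. With only the genes above 0 in all 4 groups the resting genotype difference held 79.1% and the WT response 77.8%. Resting WT is the group that the larger shares have in common. The share of each single group depends on the centre from which it is measured. With the mean of the 4 groups as the centre and without small RNA genes, the shares were -6.67% for Nelfb KO at 0.5 h, 25.6% for resting Nelfb KO, 24.4% for WT at 0.5 h and 56.7% for resting WT. Measured from WT at 1 h, which takes no part in the difference, they were 6.01%, 12.9%, 11.7% and 69.3% in the same order, and from the median of the 4 groups 6.82%, 12.1%, 10.9% and 70.2%. Resting WT had the largest share with each of these centres.

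Gene by gene the picture was alike. A group was taken to stand apart when the other 3 groups spanned less than 50% of the difference of responses. Of the 611 genes with a larger response, resting WT stood apart for 494 (80.9%), WT at 0.5 h for 32, Nelfb KO at 0.5 h for 7, resting Nelfb KO for 7 and no single group for 71. Of the 9 genes with a smaller response resting WT stood apart for 6. In the 494 genes WT at 1 h lay nearer to the mean of the other 3 groups than to resting WT for 490 (99.2%). Resting WT was above WT at 1 h by a median of 0.71 on the log2 scale, while the mean of the other 3 groups was above it by 0.04. Read by pairs of groups, 55 of the 611 genes had Nelfb KO above WT by 1.5-fold or more at 0.5 h, 364 had Nelfb KO below WT by that much at rest, 0 met both and 192 met neither. By response, 54 were only induced in Nelfb KO by 1.5-fold, 443 were only lower by 1.5-fold in WT at 0.5 h than in resting WT, 1 met both and 113 neither. A difference of responses in this direction was thus most often a lower value in WT at 0.5 h than at rest, with little response in Nelfb KO. Over all genes other than small RNA genes, 97 were higher and 1 lower by 1.5-fold at 0.5 h in Nelfb KO, against 64 higher and 468 lower in WT.

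**Figure D2:**
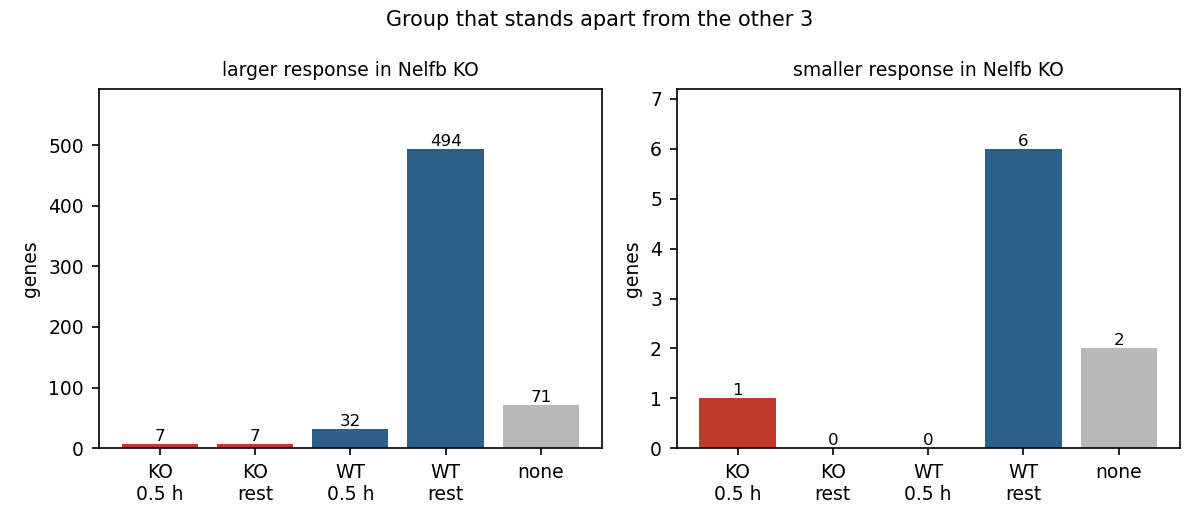
Bars count the genes, other than small RNA genes, whose difference of responses passes 1.5-fold, by the group that stands apart from the other 3, with genes of a larger response in Nelfb KO on the left and of a smaller response on the right. Resting WT stands apart in 494 of 611 and in 6 of 9 genes.

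The other groups seldom stood apart. Nelfb KO at 0.5 h did for 7 of the 611 genes. These were Adm, Cebpb, Hist2h3c2, Id3, Ifrd1, Klf2 and Sdc4, here and below chosen after their values were seen where the rule for named genes does not give them. Id3, an inhibitor of basic helix-loop-helix factors, had 233 and 113 FPKM in Nelfb KO, against 147 and 125 FPKM in WT. Resting Nelfb KO stood apart, as the lowest group, for another 7 genes, Bcl2a1d, Eif3j1, Gm5547, Nupr1, Slfn2, Spic and Trex1. Slfn2, a regulator of immune cell quiescence, had 351 and 249.5 FPKM in Nelfb KO, against 303 and 336 FPKM in WT. The exonuclease gene Trex1 had 69.1 and 55.1 FPKM in Nelfb KO, against 56.1 and 69.4 FPKM in WT. For Trex1, WT at 0.5 h was thus nearly as low as resting Nelfb KO. Eif3j1 had 1.798 and 0.036 FPKM in Nelfb KO and 1.68 and 2.52 FPKM in WT. In WT at 1 h Eif3j1 had 0.019 FPKM, so a value near 0 was not particular to resting Nelfb KO. It has a near-identical copy, Eif3j2, so that its level is uncertain. WT at 0.5 h stood apart, as the lowest of the 4 groups, for 32 genes, with a median genotype difference of 0.44 at 0.5 h and of -0.27 at rest. Resting WT was high in these 32 genes too, above WT at 1 h by a median of 0.62 on the log2 scale. Trappc6a, a subunit of a vesicle tethering complex, led them with 34.3 and 32.8 FPKM in Nelfb KO, against 23.4 and 46.3 FPKM in WT. Its value in WT at 1 h, 23.2 FPKM, was as low as in WT at 0.5 h.

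LPS-induced genes made up a second, smaller part of the difference, and here it was the 0.5 h values that differed. Past 1.5-fold, 58 genes were induced in both genotypes. Their median response was 1.93 in Nelfb KO and 1.29 in WT on the log2 scale, 56 of the 58 had a positive difference and 37 passed 1.5-fold, all as larger responses. The median genotype difference of these 58 genes was 0.85 at 0.5 h and 0.04 at rest. Another 39 genes were induced in Nelfb KO only, among them Il1a, Klf2, Sdc4, Cd83 and Kdm6b, and all 39 had a positive difference, as the selection favours. Only 6 were induced in WT only, namely Cpeb2, Hist2h2aa2, Lysmd3, Pira7, Rn45s and Zc3h12c, with a median WT response of 0.67 and a median genotype difference of 0.69 at rest. Among the 55 genes with Nelfb KO above WT at 0.5 h, 44 were induced in Nelfb KO, 35 in WT at 0.5 h and 43 in WT by 1 h. At rest only 4 of the 55, namely Hist1h4m, Hist1h2ai, Hist2h2aa1 and Hspa1b, differed by 1.5-fold or more between the genotypes, all higher in Nelfb KO. WT at 1 h exceeded Nelfb KO at 0.5 h by at least 1.5-fold for 30 of the 55 and lay below it for 18. Lower values in WT at 0.5 h than at rest, past 1.5-fold, were found for 9 of the 55, such as Mt2 and Cox7a1, named here after their values were seen.

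Among 26 kept cytokine and growth factor genes (32 listed), 8 had a larger response past 1.5-fold and none a smaller one, beside 5.89% and 0.453% of all kept genes. The median difference was 0.20 (0.07 once the length trend was removed) beside 0.02 over all kept genes. The largest was that of Il1b, which encodes the inflammatory cytokine IL-1β and lies on chr2:129364570-129371139 of GRCm38. Il1b had 59.9 FPKM in Nelfb KO at 0.5 h and 2.83 FPKM in resting Nelfb KO, against 20.6 FPKM at 0.5 h and 3.21 FPKM at rest in WT. The resting values were close, so that of its difference of 1.63 the genotype difference at 0.5 h made up 1.49 and that at rest (-0.14) the remainder. In WT Il1b reached 624 FPKM at 1 h. Tnfsf9, the ligand of 4-1BB (chr17:57105325-57107757), had 65.9 FPKM at 0.5 h and 2.95 FPKM at rest in Nelfb KO, against 23.5 FPKM at 0.5 h and 2.83 FPKM at rest in WT, a difference of 1.41 with resting values close. For Tnf (chr17:35199381-35202007), the first cytokine of the LPS response, the values were 553 and 28.9 FPKM in Nelfb KO and 302 and 34.5 FPKM in WT. Its difference of 1.12 was 0.87 from 0.5 h and 0.25 from the lower value of resting Nelfb KO. Gdf15, a stress-induced member of the TGF-β family, had a difference of 1.14 (107 and 19.1 FPKM in Nelfb KO, 53.5 and 21.3 FPKM in WT). Ifnb1, Il6 and Csf3, named here after their values were seen, were near 0 FPKM at rest in both genotypes. They had 3.54, 3.75 and 2.49 FPKM in Nelfb KO at 0.5 h and 1.44, 1.75 and 0.73 FPKM in WT at 0.5 h, where the added 1 FPKM shrinks a log2 ratio. Il10, the anti-inflammatory cytokine, had 30.4 and 9.76 FPKM in Nelfb KO and 21.3 and 8.84 FPKM in WT, a difference of 0.36 that did not pass 1.5-fold.

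Of 21 kept chemokine and chemokine receptor genes 6 had a larger response, beside 5.89% of all kept genes. All 6 had a genotype difference past 1.5-fold at 0.5 h. The median difference of the list was 0.44 (0.06 once the trend over transcript length was removed). Cxcl10, which attracts activated T cells through CXCR3, had 58.5 FPKM in Nelfb KO at 0.5 h and 4.86 FPKM in resting Nelfb KO, against 23.0 FPKM at 0.5 h and 5.11 FPKM at rest in WT. The difference was 1.37, of which 1.31 came from 0.5 h. Cxcl2, a neutrophil chemoattractant, had 268 and 8.64 FPKM in Nelfb KO, against 130 FPKM at 0.5 h and 9.93 FPKM at rest in WT, a difference of 1.22. Ccl4 and Ccl3, inflammatory chemokines of macrophages, had differences of 0.98 and 0.85. At 0.5 h Ccl4 reached 483 FPKM in Nelfb KO and 269 FPKM in WT, and Ccl3 reached 367 FPKM in Nelfb KO and 240.5 FPKM in WT. In WT at 1 h these 4 chemokines ranged from 641 FPKM (Cxcl10) to 2716 FPKM (Ccl4), above their values in Nelfb KO at 0.5 h.

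The promoters of the 3 induced genes with the largest differences among those found in the RefSeq promoter set are shown to let their motifs be read beside the values, together with that of Atp5e, the first such gene of those set apart by resting WT. Each runs 5′ to 3′ from 250 bases before to 50 bases after the start site in GRCm38.p6, and capitals mark every match, on either strand, to AP-1 (TGANTCA), CRE (TGACGTCA), the TATA box (TATAAA), the NF-kB motif or the CArG box of SRF. They are Il1b on the minus strand of chr2:129371090-129371389, Cxcl10 on the minus strand of chr5:92348840-92349139, Cxcl2 on the plus strand of chr5:90903649-90903948 and Atp5e on the minus strand of chr2:174464052-174464351.
Il1b: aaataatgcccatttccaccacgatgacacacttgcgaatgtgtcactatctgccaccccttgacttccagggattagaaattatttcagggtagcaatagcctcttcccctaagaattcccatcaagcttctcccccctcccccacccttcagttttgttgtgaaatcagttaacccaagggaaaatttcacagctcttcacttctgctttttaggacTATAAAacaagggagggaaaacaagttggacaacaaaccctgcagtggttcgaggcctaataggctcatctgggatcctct
Cxcl10: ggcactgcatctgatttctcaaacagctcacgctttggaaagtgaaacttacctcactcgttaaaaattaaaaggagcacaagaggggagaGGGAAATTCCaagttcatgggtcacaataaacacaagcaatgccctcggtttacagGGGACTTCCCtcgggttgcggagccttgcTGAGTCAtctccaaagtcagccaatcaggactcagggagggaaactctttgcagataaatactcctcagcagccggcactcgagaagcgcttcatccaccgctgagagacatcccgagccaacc
Cxcl2: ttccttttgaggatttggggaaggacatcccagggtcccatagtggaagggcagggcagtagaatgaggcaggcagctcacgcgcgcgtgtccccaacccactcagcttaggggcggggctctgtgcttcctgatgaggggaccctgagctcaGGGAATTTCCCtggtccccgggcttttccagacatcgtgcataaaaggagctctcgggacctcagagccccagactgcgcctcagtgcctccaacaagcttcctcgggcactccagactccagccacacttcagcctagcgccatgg
Atp5e: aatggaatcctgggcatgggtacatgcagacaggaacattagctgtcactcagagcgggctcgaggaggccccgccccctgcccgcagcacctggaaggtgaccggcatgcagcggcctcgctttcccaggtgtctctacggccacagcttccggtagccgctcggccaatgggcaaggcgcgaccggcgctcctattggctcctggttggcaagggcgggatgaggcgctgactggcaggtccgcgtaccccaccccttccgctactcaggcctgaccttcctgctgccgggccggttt
Il1b has a TATA box that starts at position -31. Cxcl10 has NF-kB matches from -159 and -103 and an AP-1 match from -74. In Cxcl2, 2 overlapping NF-kB matches start at -97 and -96. Atp5e has no match to any of the 5 motifs in this window.

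Over the promoters of the class, 12 of the 45 genes with a promoter in the set (26.7%) among the 55 with Nelfb KO above WT at 0.5 h held the NF-kB motif, and 12 (26.7%) held the TATA box. The shares were 4.93% and 7.06% over the promoters of all kept genes (8979 genes), and 4.81% and 10.1% over those of the genes set apart by resting WT (395 with a promoter). These matches lie on either strand anywhere in the window. A sense-strand TATA box that began 40 to 20 bases before the start site was found in 3 of the 45 (6.67%). Over all kept genes its share was 1.19%. AP-1 matches were found in 5 of the 45 (11.1%), beside 4.90% over all kept genes and 4.05% over the resting WT class. CRE matches were found in 3 (6.67%), beside 3.42% over all. CArG box matches were found in 0 of the 45 and in 1.37% over all. A match says only that the letters are present, and where a gene has several start sites the first in the set was used.

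Of 24 kept genes of the Ier, Btg and Gadd45 list of early response genes, 11 had a larger response, beside 5.89% of all kept genes. The median difference of the list was 0.51. Of the 11, 9 had a genotype difference past 1.5-fold at 0.5 h. The highest of them was Ier2, which encodes an immediate early nuclear protein (chr8:84661331-84662852). Ier2 had 160.2 FPKM in Nelfb KO at 0.5 h and 15.4 FPKM in resting Nelfb KO, against 71.8 FPKM at 0.5 h and 20.4 FPKM at rest in WT. Of its difference of 1.53, the 0.5 h values gave 1.15 and the lower resting value of Nelfb KO gave 0.38. Phlda1 (chr10:111506286-111508645) had 19.2 and 2.85 FPKM in Nelfb KO and 6.40 and 2.78 FPKM in WT, a difference of 1.42 without a difference at rest. Ppp1r15a, which restores translation after stress by directing a phosphatase to eIF2α, had 178 and 13.7 FPKM in Nelfb KO, against 90.8 and 16.4 FPKM in WT, with a difference of 1.21. Ier3, a regulator of survival, had 179.9 and 25.7 FPKM in Nelfb KO, against 87.3 and 28.0 FPKM in WT, with a difference of 1.16. Cited2, a CBP/p300-binding transcriptional regulator, was just past the threshold with a difference of 0.59. For Cited2 a higher resting value in Nelfb KO (33.9 FPKM against 24.1 FPKM in WT) took away from the higher value at 0.5 h (81.5 FPKM in Nelfb KO against 38.5 FPKM in WT).

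Of 15 kept Egr, Nr4a and Klf factors 5 had a larger response, beside 5.89% of all kept genes, and the median difference was 0.09 (0.00 with quantile normalization). Egr1, a zinc finger factor of the immediate early response, had 179 and 2.67 FPKM in Nelfb KO, against 79.6 and 2.41 FPKM in WT. Its responses of 5.61 in Nelfb KO and 4.56 in WT were the steepest among genes other than small RNA genes and Rn45s, and the difference was 1.05. Egr2 had a difference of 1.02, of which 0.60 came from 0.5 h and 0.42 from a lower resting value in Nelfb KO (0.88 FPKM against 1.51 FPKM in WT). Nr4a1, an orphan nuclear receptor, had a difference of 0.98 and Klf2, a restrainer of inflammatory activation, of 0.79. Klf2 had 13.1 FPKM in Nelfb KO at 0.5 h and 6.53 FPKM at rest, against 7.95 and 7.31 FPKM in WT, so that Nelfb KO at 0.5 h alone stood apart.

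Among 14 kept AP-1 genes Maff and Jun passed 1.5-fold, both upward, beside 5.89% of all kept genes with a larger response. Of the 14, 12 had a positive difference and the median was 0.32 (0.14 with quantile normalization and 0.12 once the length trend was removed). Maff, a small Maf protein, had 8.34 and 1.48 FPKM in Nelfb KO and 3.43 and 1.61 FPKM in WT (difference 1.15). Jun had 81.4 and 23.0 FPKM in Nelfb KO and 42.0 and 19.6 FPKM in WT, a difference of 0.72. Fos, its partner in AP-1, was higher in Nelfb KO at both times, with 261 and 44.8 FPKM against 160.4 and 35.3 FPKM in WT, and its difference was 0.36. For Fos the genotype difference was 0.70 at 0.5 h and 0.34 at rest, and WT at 1 h (124 FPKM) was below both 0.5 h values.

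Of 9 kept MAP kinase phosphatases, which switch off the kinases activated by LPS, Dusp2 and Dusp1 had a larger response, beside 5.89% of all kept genes. The list median was 0.00. Dusp2 had 143 and 6.47 FPKM in Nelfb KO, against 52.9 and 5.42 FPKM in WT, and at 92.0 FPKM WT at 1 h was still below Nelfb KO at 0.5 h. Its responses were 4.26 in Nelfb KO and 3.07 in WT. Dusp1 had 196 and 20.8 FPKM in Nelfb KO, against 115 and 19.9 FPKM in WT (difference 0.71). Among 19 NF-kB subunit and inhibitor genes the median was 0.29 and 5 had a larger response, beside 5.89% of all kept genes. The 5 were inhibitors and feedback genes and no subunit. Tnfaip3, which encodes the ubiquitin-editing enzyme A20, had 71.1 and 12.6 FPKM in Nelfb KO and 43.0 and 13.3 FPKM in WT (difference 0.78). Nfkbia, the inhibitor IκBα, had 527 and 115 FPKM in Nelfb KO and 283 and 98.4 FPKM in WT (difference 0.68). Otulin, a deubiquitinase of linear chains, passed by another route, with 49.0 and 46.5 FPKM in Nelfb KO against 44.9 and 69.0 FPKM in WT, where resting WT alone was high.

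**Figure D3:**
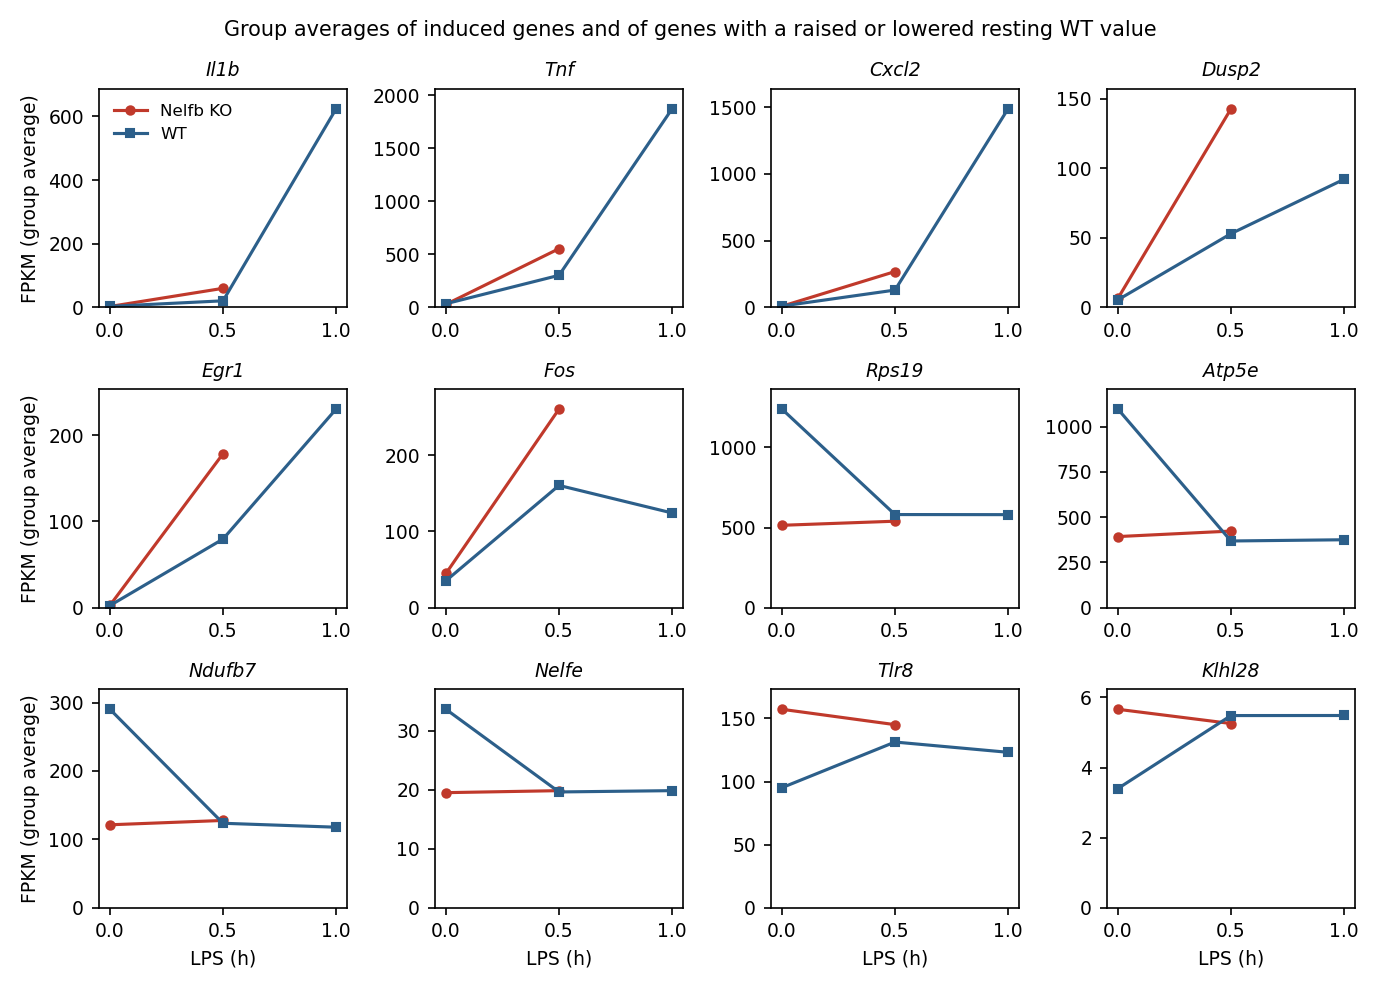
FPKM group averages against hours of LPS for 12 genes, Nelfb KO in red at 0 and 0.5 h and WT in blue at 0, 0.5 and 1 h, on axes that start at 0. In Il1b, Tnf, Cxcl2, Dusp2, Egr1 and Fos the lines start close together and Nelfb KO is higher at 0.5 h. In Rps19, Atp5e, Ndufb7 and Nelfe resting WT is high and the other values are level, and in Tlr8 and Klhl28 resting WT is low.

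Of 18 kept SOCS and mRNA decay genes only 3 had a positive difference and 1 passed 1.5-fold, a share near the 5.89% of all kept genes, with a median of -0.17. This was Socs3, the feedback inhibitor of gp130 signalling, with 163 and 12.8 FPKM in Nelfb KO against 78.5 and 11.4 FPKM in WT (difference 0.90). Zfp36, which encodes the mRNA decay factor tristetraprolin, had 657 and 73.0 FPKM in Nelfb KO and 364 and 58.0 FPKM in WT, a difference of 0.52. None of 26 kept Toll-like receptors and adaptors passed 1.5-fold in either direction, 6 had a positive difference and the median was -0.13. Tlr4, the LPS receptor, had 25.8 and 26.1 FPKM in Nelfb KO against 27.4 and 22.0 FPKM in WT (difference -0.32). Tlr8 lay closest to the threshold, at -0.58, with 145 and 157 FPKM in Nelfb KO against 131 and 95.2 FPKM in WT. Resting WT stood apart as the lowest group for both Tlr4 and Tlr8.

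Interferon-stimulated genes are later in the LPS response, and among 34 kept members of that list 2 passed 1.5-fold, again a share near the 5.89% of all kept genes, with a median of 0.15 (0.02 with quantile normalization). Irf1, a transcription factor of the early response, had 87.6 and 26.3 FPKM in Nelfb KO and 39.7 and 22.5 FPKM in WT (difference 0.91). The ubiquitin-like Isg15 passed with 51.3 and 36.6 FPKM in Nelfb KO, below the 60.6 and 76.9 FPKM of WT, with a difference of 0.81. Its genotype difference was -0.24 at 0.5 h and -1.05 at rest, and its response was 0.48 in Nelfb KO and -0.34 in WT. Of 25 kept prostaglandin, adhesion and surface genes 5 had a larger response, beside 5.89% of all kept genes, and the median was 0.12. Ptgs2, the inducible cyclooxygenase, had 11.6 and 1.16 FPKM in Nelfb KO and 4.70 and 0.76 FPKM in WT (difference 0.85). Cd83 had 42.1 and 19.1 FPKM in Nelfb KO and 28.1 and 23.6 FPKM in WT, also 0.85, and Sdc4 had 124 and 57.5 FPKM in Nelfb KO and 61.6 and 50.03 FPKM in WT (difference 0.80). Among 24 heat shock and stress genes 3 passed, Hspa1a, Hspa1b and Hspe1, beside 5.89% of all kept genes, with a list median of 0.13 (-0.12 with quantile normalization). Hspa1a and Hspa1b are near-identical copies, whose reads the counting may have split, and Hspa1a had 3.74 and 1.35 FPKM in Nelfb KO and 0.86 and 0.64 FPKM in WT. The 21 kept genes of P-TEFb, 7SK and elongation had a median of -0.06 (0.04 once the length trend was removed). Of them 1, Paf1, passed at 0.72, a share near the 5.89% of all kept genes.

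**Figure D4:**
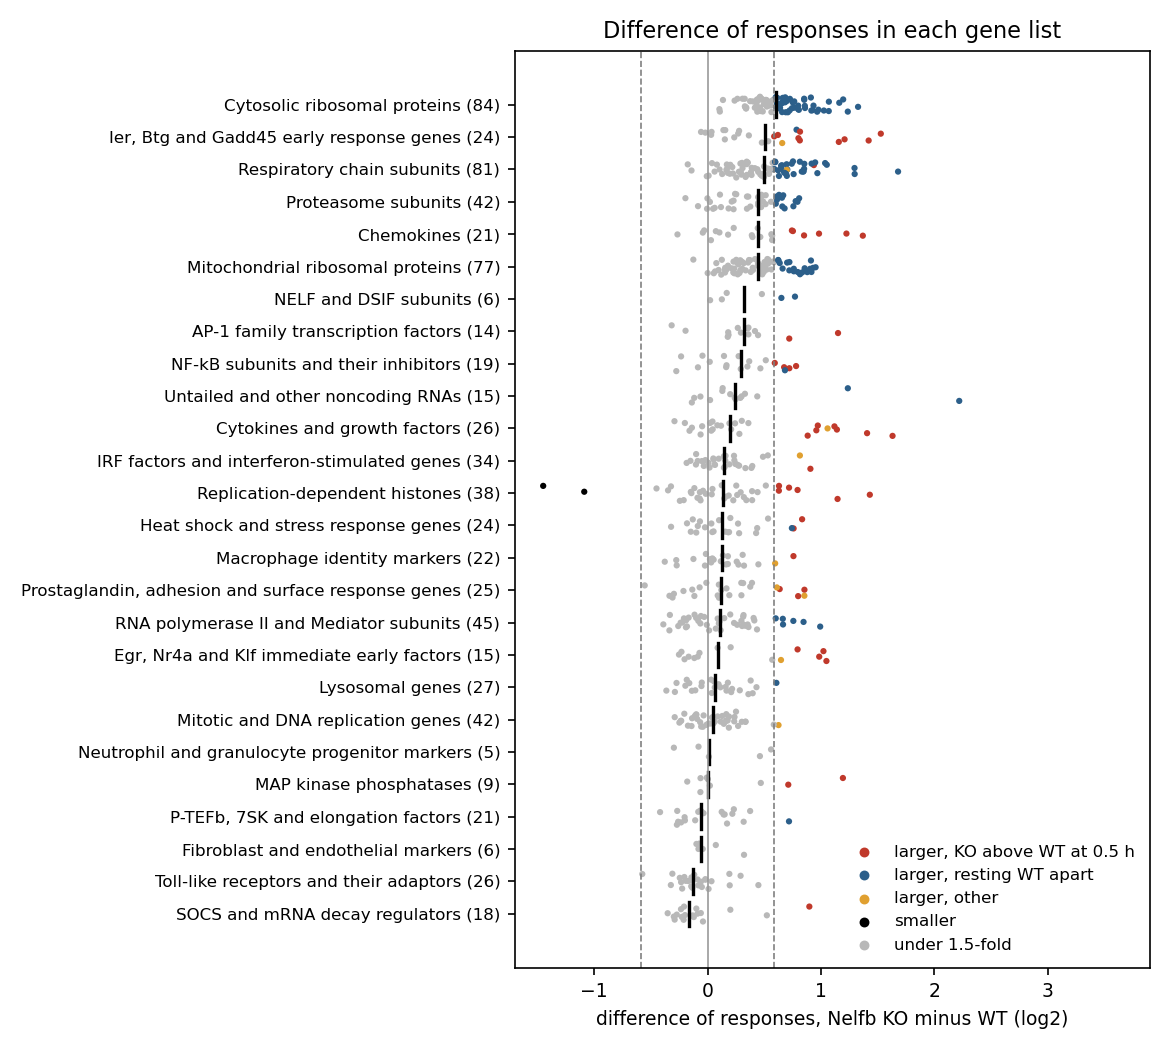
Each point is a kept gene of a list, placed by its difference of responses (log2, Nelfb KO minus WT), with the number of kept genes in brackets, a black bar at the median and dashed lines at 1.5-fold. Lists with under 5 kept genes are left out. Genes of the signalling and cytokine lists pass mostly through the 0.5 h values, and those of the ribosome, respiratory chain and proteasome through resting WT.

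The genes set apart by resting WT were of another kind. In the 494 with a larger response the median response was 0.05 in Nelfb KO and -0.69 in WT, and the median genotype difference was 0.09 at 0.5 h and -0.67 at rest. The rule for standing apart sets the signs of the WT response and of the genotype difference at rest. For a larger response, it requires WT at 0.5 h and resting Nelfb KO to lie below resting WT. It also limits the size of the KO response and of the genotype difference at 0.5 h. Of these genes 462 were protein-coding. None was induced by 1.5-fold in WT at 0.5 h, which the rule excludes, and 1 was induced in Nelfb KO, which it makes rare. Ribosomal protein genes were the largest group by list, since 43 of 84 cytosolic ones passed 1.5-fold, beside 5.89% of all kept genes. All 43 had resting WT apart, and all 84 had a positive difference (median 0.60, and 0.19 with quantile normalization). Rps19 (chr7:24884371-24889806) had 539 FPKM in Nelfb KO at 0.5 h and 514 FPKM in resting Nelfb KO, against 581 FPKM at 0.5 h and 1239.5 FPKM at rest in WT. Rpl36 (chr17:56613416-56614243) had 793 and 753 FPKM in Nelfb KO, against 652 and 1555 FPKM in WT. Rpl38 (chr11:114668524-114672331) had 951 and 902 FPKM in Nelfb KO, against 942 and 2107 FPKM in WT. Only resting WT was high in each of the 3, and at 580.4, 665 and 985 FPKM WT at 1 h was near the other groups. Their differences were 1.16, 1.33 and 1.24. Ribosomal protein genes have many processed pseudogenes that can share their reads, so the level of any single one is uncertain.

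The same held for mitochondrial proteins and the proteasome. Of 81 kept respiratory chain subunits 33 passed 1.5-fold, 31 of them with resting WT apart (median 0.50, and 0.16 once the length trend was removed). Atp5e, the epsilon subunit of ATP synthase (chr2:174461072-174464105), had 423 and 392.3 FPKM in Nelfb KO, against 368 and 1096 FPKM in WT, and its difference of 1.68 was the largest of the lists other than the noncoding RNAs. Ndufb7 of complex I had 128 and 121 FPKM in Nelfb KO, against 124 and 290.1 FPKM in WT (difference 1.30). Of 77 mitochondrial ribosomal proteins 19 passed, all with resting WT apart, and the median was 0.44 (0.19 once the length trend was removed). Of 42 proteasome subunits 12 passed, again all with resting WT apart, with a median of 0.45 (0.21 once the length trend was removed). Psmb10, a subunit of the immunoproteasome, had 51.6 and 50.3 FPKM in Nelfb KO, against 50.1 and 86.3 FPKM in WT. Among 45 RNA polymerase II and Mediator subunits 6 passed, all with resting WT apart, and the median was 0.11 (-0.02 once the length trend was removed). Beside these counts, 5.89% of all kept genes had a larger response. Among the 1107 genes with the shortest transcripts (174 to 1213 nt), small RNA genes left out, the share was 29.3%. The short noncoding RNAs of RNase P and RNase MRP were also high in resting WT only. Rpph1 (chr14:50807449-50807767) had 8.01 and 6.46 FPKM in Nelfb KO, against 5.22 and 23.0 FPKM in WT, and its difference of 2.22 was the highest among genes other than small RNA genes. Rmrp had a difference of 1.24. Rplp2-ps1, a pseudogene of the ribosomal protein gene Rplp2, came next to Rpph1 with 2.12, at 31.8 and 30.1 FPKM in Nelfb KO, against 29.2 and 123 FPKM in WT. Further down were Gm5512 (1.72), Slc10a3-ubl4 (1.69), the transmembrane protein gene Tmem160 (1.52), the guanylate cyclase activator gene Guca1a (1.52) and the snoRNA host gene Snhg9 (1.41), each highest in resting WT. Tmem160 had 46.4 and 45.5 FPKM in Nelfb KO, against 41.6 and 119 FPKM in WT.

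Of the NELF subunits only Nelfe was among these genes. Nelfe had 19.9 and 19.5 FPKM in Nelfb KO, against 19.6 and 33.7 FPKM in WT, with a difference of 0.77, and Nelfcd had 11.9 and 11.4 FPKM in Nelfb KO, against 10.3 and 14.1 FPKM in WT, with 0.48. Nelfa and Nelfb had differences of 0.02 and 0.13. In the 6 kept NELF and DSIF genes the median was 0.32, and Supt4a of DSIF passed at 0.65 with resting WT apart. Genes of mitosis and DNA replication had lower levels in Nelfb KO at both times by a similar amount, with median genotype differences of -0.76 at 0.5 h and -0.79 at rest over 42 genes, and so their median difference of responses was 0.05 (-0.01 with quantile normalization). Birc5, a survival protein of dividing cells, was the 1 of the 42 that passed, a share below the 5.89% of all kept genes. It had 11.3 and 10.5 FPKM in Nelfb KO against 20.5 and 30.2 FPKM in WT. Of 27 kept lysosomal genes 1 passed, Ctsz, again a share below 5.89% (list median 0.06, and -0.16 with quantile normalization). Ctsz had 960.0 and 949 FPKM in Nelfb KO against 1127 and 1697.5 FPKM in WT. Among 22 macrophage identity markers 2 passed, Cebpb and Aif1, a share not far from the 5.89% of all kept genes. The list median was 0.13 (-0.15 with quantile normalization). Cebpb, a factor of the LPS response itself, had 132 and 89.2 FPKM in Nelfb KO against 74.1 and 84.8 FPKM in WT.

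Transcript length moved with these values. The 494 genes set apart by resting WT had a median annotated length of 1109 nt, and 40.8% of them were under 1000 nt, beside 3010 nt and 6.31% over all genes other than small RNA genes. The 55 genes with Nelfb KO above WT at 0.5 h had a median of 1628 nt. The genes were divided by length into 10 bins. In the bin of the shortest transcripts (median 904 nt) the median difference of responses was 0.41 and 324 of 1107 genes passed 1.5-fold as larger (29.3%). In the bin of the longest transcripts (median 7812.5 nt) it was -0.19 and 2 of 1106 passed (0.181%). Across 11061 genes, which are not independent replicates and share the libraries, Spearman's rho between length and the difference was -0.64. It was -0.09 for the KO response and 0.63 for the WT response, and it was -0.19 for the genotype difference at 0.5 h and 0.46 for that at rest. The trend was thus seen in the terms that contain resting WT. Once it was removed, 129 of the 494 genes and 34 of the 55 genes with Nelfb KO above WT at 0.5 h still passed. Without small RNA genes, the genotype difference at rest then still held 80.0% of the variance. The part of length, or of what moves with it in the resting WT libraries, in these differences was not tested. With 1 average per group, a change in the cells of resting WT and a property of its libraries cannot be told apart.

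**Figure D5:**
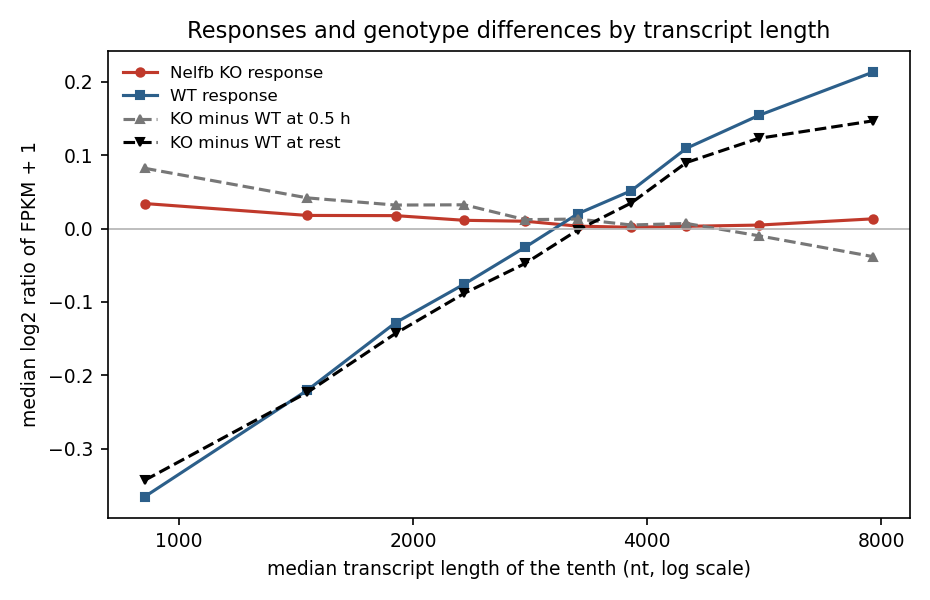
Median log2 ratios of FPKM + 1 in 10 bins of genes by transcript length (x axis, nt on a log scale). The Nelfb KO response and the genotype difference at 0.5 h stay between -0.04 and 0.08 in every bin, while the WT response and the genotype difference at rest climb, the WT response being -0.37 in the shortest and 0.21 in the longest bin.

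The share of larger responses also rose with level. Past 1.5-fold it was 0.669% for genes with a mean of 0.5 to 1 FPKM and 1.93% from 1 to 5 FPKM. From 5 to 50 FPKM it was 4.83%, and at 50 FPKM or more 16% (264 of 1650 genes). The added 1 FPKM shrinks log2 ratios at low levels, so the low shares there are in part set by it. With 0.1 FPKM added instead, 799 genes other than small RNA genes were larger past 1.5-fold, against 611. The median mean level of the 494 genes was 41.7 FPKM and that of the 55 genes 48.3 FPKM.

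Smaller responses in Nelfb KO were rare outside the small RNA genes, 9 in all. Rn45s, the 45S ribosomal RNA precursor, had 1534 and 1469 FPKM in Nelfb KO, against 1218 FPKM at 0.5 h and a listed 0 at rest in WT, so no fold is given. The histone genes Hist1h4n and Hist2h2aa2 followed, with -1.45 and -1.09, at levels of 0.56 to 6.30 FPKM. Replication-dependent histones have near-identical copies and mostly untailed mRNA, and of 38 kept ones 6 passed as larger and 2 as smaller, with a median of 0.14 (-0.25 once the length trend was removed). Over all kept genes the shares were 5.89% larger and 0.453% smaller. Gvin1, an interferon-induced GTPase named here after its values were seen, had 7.03 and 8.92 FPKM in Nelfb KO, against 16.6 and 12.7 FPKM in WT (difference -0.66). The remaining 5, Klhl28, Lysmd3, Uprt, Alg10b and Rcor1, also named after their values were seen, all had resting WT as the group apart. Klhl28 (chr12:64938833-64965534) had 5.25 and 5.66 FPKM in Nelfb KO, against 5.48 and 3.40 FPKM in WT, and 5.48 FPKM in WT at 1 h. The 6 genes with resting WT apart and a smaller response, Rn45s included, had a median transcript of 5684 nt over the 5 with a length.

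Small RNA genes had the most extreme differences at both ends, with 52 larger and 42 smaller past 1.5-fold. Their median annotated length was 96 nt, and in mature form these RNAs carry no poly(A) tail, while polyadenylated RNA was sequenced. Only 17 of the 123 were above 0 in all 4 groups, 52 were above 0 in 1 group and 13 in none, so that 46 of the 52 larger and 37 of the 42 smaller differences had a 0 in some group. Mir23a, Mir27a and Mir24-2 lie side by side on the plus strand of chromosome 8 and are processed from 1 primary transcript. Mir23a (chr8:84208518-84208592) had 212 FPKM in Nelfb KO at 0.5 h and was listed at 0 in resting Nelfb KO, and it was listed at 0 in WT at 0.5 h and had 373 FPKM in resting WT, which gave the most positive difference, 16.28. Mir27a (chr8:84208672-84208758) had 85.5 FPKM in resting Nelfb KO only, for a difference of -6.43, and Mir24-2 (chr8:84208815-84208921) was listed at 0 in all groups and is not among the kept genes. Their main mature forms, which an mRNA library does not count as such, are shown from RefSeq (GRCm38.p6) with the seed, bases 2 to 8, in capitals, and have 3 different seeds.
mmu-miR-23a-3p: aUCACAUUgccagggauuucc
mmu-miR-27a-3p: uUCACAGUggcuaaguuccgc
mmu-miR-24-3p: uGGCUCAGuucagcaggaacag
At the other end Mir3960 was listed at 0 in Nelfb KO at 0.5 h and had 375 FPKM in resting Nelfb KO, against 211 FPKM at 0.5 h and a listed 0 at rest in WT (difference -16.28). Among snoRNAs Snord96a, at 208 FPKM in Nelfb KO at 0.5 h and 193 FPKM in resting WT and at 0 in the other groups, had a difference of 15.31. A 0 here can be a failed estimate, so these differences are given as they follow from the table and no fold is read from them.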

How the data were processed

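Per the authors' methods and the file header, the deposited FPKM values came from paired-end reads of polyadenylated RNA, split with CASAVA 1.8, aligned to mm10 with TopHat 2.1.0 with unique reads kept, and quantified with Cuffdiff of Cufflinks 2.2.1, averaged over 3 biological replicates per group. The transcript annotation is not given in the sources used here. Such averages hide the spread between libraries and their depth. The table also holds, for 4 comparisons, log2 ratios of FPKM + 1 with p-values and q-values, which were not used. Of 3 group columns that occur again, the first was taken (17 genes differ).

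Differences of responses were computed in Python 3.11.15 with numpy 2.4.6 and pandas 2.3.3 and tested on simulated data. No test was run, since an interaction fit needs values per library. "Past 1.5-fold" means a log2 difference of at least 0.585 in size. Small RNA genes were miRNA, snoRNA and similar RefSeq biotypes. Gene coordinates and transcript lengths came from GENCODE M21 (GRCm38), promoters and miRNAs from RefSeq (GRCm38.p6). For variance shares, each group's covariance with the difference was divided by the variance. A trend over length was fitted with lowess (statsmodels 0.14.6) to the genotype differences.

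Named genes were the 15 most positive and 15 most negative differences, 5 of each with at least 50 FPKM, up to 4 per list with the largest size, the NELF subunits and Fos, Jun, Il10, Cited2, Tnfaip3, Il1b and Tnf. Others were chosen after their values were seen. The genes and lists were chosen with earlier results of these data known. Pseudocount, filters, scalings, column choice, zeros, length and small RNA genes were varied.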

Additional observations from a re-analysis of the deposited data

How the results depend on the processing

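No paired analysis was possible because the table holds 1 average per group and no replicate. For the same reason no library was left out, and the depth is unknown. Of the summary values 55 stayed within the tolerance (1.5 times for counts, 0.25 on the log2 scale, 10 points for shares) and 17 moved. No named gene past 1.5-fold changed sign, but the median over all genes, 0.02, was -0.02 with median scaling and -0.04 with quantile normalization. With a pseudocount of 0.1 FPKM there were 103 smaller responses past 1.5-fold and 161 larger ones past 2-fold, against 51 and 106. With quantile normalization 417 were larger and 78 smaller past 1.5-fold, against 663 and 51. With the trend over transcript length removed 240 were larger and 109 smaller past 1.5-fold, and 64 were larger past 2-fold. Without the genes at 0 in any of the 4 groups there were 13 smaller responses past 1.5-fold, and 62 larger and 3 smaller past 2-fold, and the genotype difference at 0.5 h held 20.9% of the variance, against 50.2%. Without small RNA genes, added after seeing the data, there were 9 smaller responses past 1.5-fold, and 58 larger and 3 smaller past 2-fold. The genotype difference at 0.5 h then held 17.8%, Nelfb KO at 0.5 h alone -6.67% (20.8% with them) and resting WT alone 56.7% (29.2% with them). Without small RNA genes, the trend over length moved the count of resting WT genes that passed to 129 of 494, and quantile normalization to 273. Of the list medians 7 moved and 282 did not, and of the single gene values 126 moved and 1236 did not. Most moves of single genes came with the trend over length removed, where 75 values moved and 68 did not. With a pseudocount of 0.1 FPKM 36 moved and 108 did not. The causes were not tested.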
